A study of Mus musculus with 2 samples.

Results

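The genes described here are 8 members of one guidance system for axons, migrating neurons and vessels: the secreted class 3 semaphorins Sema3a, Sema3c and Sema3e, the neuropilins Nrp1 and Nrp2, and the plexins Plxna2, Plxna4 and Plxnd1. They were taken by gene symbol from the 32285 genes counted in both libraries, and all 8 had UMIs in both and at least 50 UMIs in the classed nuclei of each. The study profiled nuclei from frozen mouse brain sections with Slide-tags, in which nuclei are tagged in the section with spatial barcodes and then sequenced as single nuclei. One library came from the hippocampus of a male C57BL/6J adult aged 56 days, cut at 20 µm, and the other from a sagittal section of a C57BL/6J embryo at embryonic day 14 (E14), with no mutation or treatment named for either. Each tissue was 1 library, so no test between samples was possible, and every interval given is a 95% interval of counting error only.

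Class 3 semaphorins are secreted proteins that mostly repel, and in some settings attract, growing axons and migrating cells. Neuropilins bind most of them at the cell surface but carry little signalling machinery of their own, and class A plexins act as their signalling partners. Sema3e differs in that it binds plexin D1 directly, and plexin D1 is best known from vessels. In the forebrain the system is known for steering cortical axons, sorting interneurons between cortex and striatum, and shaping the layered inputs of the hippocampus.

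After filtering, 9036 of 9037 E14 nuclei and 1609 of 1661 adult nuclei were kept, with 58923882 and 15346746 UMIs and medians of 4204 and 6607 UMIs per nucleus. With 1 exception, a nucleus was placed in a class when at least 3 of 8 markers of that class were more than 2 times above what its depth predicts. That list also had to lead any unrelated list, and no marker was a member. The MGE (medial ganglionic eminence) interneuron, striatal and forebrain GABAergic lists competed as 1, and any of them could hold the 3 markers. Such nuclei were named MGE interneuron or striatal from at least 2 markers of that list, and more than of the other. Otherwise they were named forebrain GABAergic. This placed 3721 E14 nuclei (41.2%) in 15 classes and 1278 adult nuclei (79.4%) in 10 classes, and all class names below stand for "-like" nuclei. Within each class, genes detected in a minimum share of its nuclei were ranked by ratio, with a small constant added to each level. Of the 10 highest genes in a class, 2 to 5 were markers of its own list in the E14 classes and 1 to 5 in the adult classes. The adult CA1 and microglial classes had 1 such marker each, so genes outside the lists led them, and CA3 had 2 with 1 marker of another list. A further 274 E14 nuclei rich in globin transcripts were left out of the classes, and the libraries shared 1 cell barcode. Of the classed nuclei, 727 in E14 and 273 in the adult also met a second list. Levels are UMIs per 1000000 UMIs (CPM) summed over the nuclei of a class. Doublets were not called, and free RNA was not removed here, and the part of either in the levels was not tested.

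The members lie on chromosomes 1, 5, 6 and 8 of mm10, and Sema3a, Sema3c and Sema3e all lie on chromosome 5. Sema3a spans chr5:13125414-13602565, Sema3e chr5:14025276-14256689 and Sema3c chr5:17574281-17730268, all on the plus strand. Nrp1 lies at chr8:128358604-128503363, Nrp2 at chr1:62703285-62818695 and Plxna2 at chr1:194618218-194816869. Plxna4 lies at chr6:32144268-32588192 and Plxnd1 at chr6:115954811-115995005, both on the minus strand. Since intronic reads were counted, levels of different genes were compared only per length of the gene. Per 100 kb of gene, the whole E14 library held 229.9 CPM of Nrp1, 226 of Nrp2, 179 of Plxna2 and 125 of Plxna4, but 12.1 to 23.8 CPM of the 3 ligands and 18.7 of Plxnd1. In the adult the same quantity was 189 for Plxna4 and 162 for Nrp1, 37.7 for Sema3e and 2.10 for Sema3a. In both libraries the neuropilins and class A plexins thus stood above the ligands on this scale.

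In the E14 brain each ligand had a different leading class. Sema3a, the repellent best known for turning cortical axons, was highest in fibroblast or mesenchyme nuclei at 150.1 CPM (134 to 168, 277 nuclei), which was 2.58-fold (2.28 to 2.92) the level of all other classed nuclei. Intermediate progenitors at 105 CPM and radial glia at 97.4 CPM came next, and their intervals overlapped. Cortical excitatory, MGE (medial ganglionic eminence) interneuron and thalamic nuclei held 56.3, 56.2 and 52.6 CPM, and forebrain GABAergic, endothelial and choroid plexus nuclei 38.5, 38.4 and 38.1 CPM. Within each of these groups of 3 the intervals overlapped. The microglial value of 75.9 CPM rested on 1 nucleus for 46.2% of its UMIs.

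Sema3c, a ligand of both neuropilins, was highest in cortical excitatory nuclei at 108 CPM (97.0 to 120, 274 nuclei), 3.74-fold (3.29 to 4.23) the other classed nuclei. The intervals of the next classes overlapped it or each other: GABAergic nuclei without Dlx held 90.4 CPM, where 1 of 24 nuclei gave 47.6% of the UMIs, and choroid plexus epithelium held 86.1 CPM (72.3 to 102). Intermediate progenitors at 33.2 CPM and radial glia at 23.0 CPM were below the cortical neurons, and thalamic nuclei were lowest at 14.3 CPM. The cortical level was 3.25-fold (2.40 to 4.49) that of intermediate progenitors and 7.56-fold (5.63 to 10.3) that of thalamic nuclei.

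The promoter of Sema3c is shown because its leading class is defined in part by NeuroD factors, which bind E-box sequences. The window runs from 250 bases before to 50 bases after the RefSeq start on GRCm38.p6, on the plus strand, and the capitals mark a CAGATG E-box, searched on both strands.
Sema3c, chr5:17574566-17574865: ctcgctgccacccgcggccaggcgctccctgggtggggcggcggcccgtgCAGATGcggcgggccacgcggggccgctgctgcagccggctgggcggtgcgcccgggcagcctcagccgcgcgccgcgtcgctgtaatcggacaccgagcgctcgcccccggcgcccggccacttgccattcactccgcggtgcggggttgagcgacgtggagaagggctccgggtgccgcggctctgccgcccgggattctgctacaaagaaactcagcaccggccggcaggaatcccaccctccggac
Windows were present for 7 of the 8 members (all but Plxna4), and Sema3c was the 1 of those 7 that held CAGATG, against 17.2% of all 32851 promoter windows. The match is a description of these letters and not a binding site.

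Sema3e, the ligand of plexin D1, was highest in striatal nuclei at 94.4 CPM (80.1 to 111, 213 nuclei), 4.09-fold (3.41 to 4.87) the other classed nuclei. The size of this ratio depended on how nuclei were classed. It was 2.37-fold when 4 markers were required, which for striatal nuclei could be markers of the forebrain GABAergic list. With classes set by clustering it was 18.1-fold. Fibroblast or mesenchyme nuclei held 53.2 CPM and intermediate progenitors 47.0 CPM. Cortical excitatory nuclei held 13.2 CPM, so the striatal level was 7.17-fold (5.10 to 10.3) theirs, and 4.01-fold (3.10 to 5.21) that of MGE interneurons at 23.6 CPM. The level in intermediate progenitors was above that of the cortical neurons, and 3.01-fold (2.09 to 4.34) that of all radial glia at 15.6 CPM. It was 4.52-fold (2.56 to 8.52) that of the 120 dorsal radial glia, whose 10.4 CPM came from 15 UMIs. In the microglial value of 38.6 CPM, 1 nucleus gave 81.8% of the UMIs. Among genes detected in a minimum share of striatal nuclei, Sema3e was also 1 of the 5 of largest ratio, with a small constant added to each level.

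**Figure D1:**
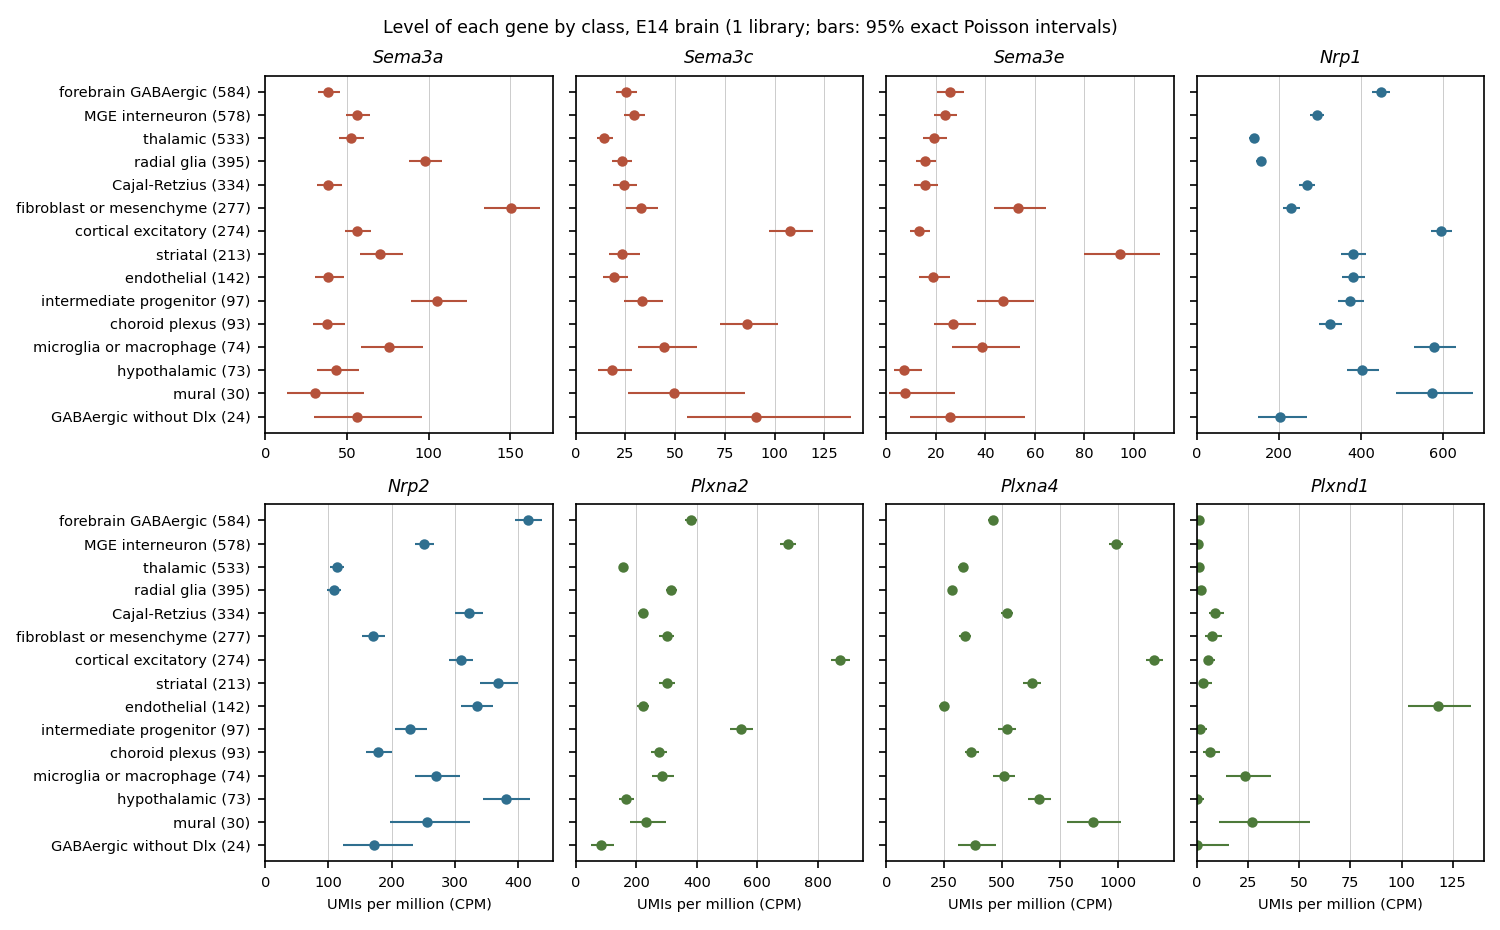
Level of each member in the 15 E14 classes, in CPM on a linear axis that differs between panels, with the number of nuclei of each class in parentheses. Points are the summed level of a class and bars its exact Poisson interval; Plxnd1 stands at 118 CPM in endothelial nuclei and at 26.7 CPM or less elsewhere.

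The neuropilins were spread over most E14 classes, with a gap of 4.29-fold for Nrp1 and 3.83-fold for Nrp2 between the highest and lowest class. Nrp1, the receptor for Sema3a and also a co-receptor for VEGF, was at 595 CPM (569 to 621) in cortical excitatory nuclei, 578 CPM (529 to 632) in microglia or macrophages and 573 CPM (485 to 672) in mural nuclei, and these 3 intervals overlapped. With classes set by clustering, with nuclei that met a second list left out, or with equal weight for each nucleus, the microglia or macrophages came first. The cortical level was 1.98-fold (1.89 to 2.08) that of the other classed nuclei. Forebrain GABAergic nuclei followed at 448 CPM, while radial glia at 156 CPM and thalamic nuclei at 139 CPM were lowest. In the 120 radial glia with more dorsal than ventral markers the Nrp1 level was 124 CPM, below the 373 CPM of intermediate progenitors (3.01-fold, 2.54 to 3.59) and the 595 CPM of cortical excitatory nuclei, and these intervals did not overlap.

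Nrp2, the receptor best known for Sema3f that also binds Sema3c, had another order. It was highest in forebrain GABAergic nuclei at 417 CPM (396 to 438, 584 nuclei), 1.77-fold (1.67 to 1.87) the other classed nuclei, with hypothalamic nuclei at 381 CPM and striatal nuclei at 369 CPM next. Hypothalamic and striatal intervals overlapped, and under 3 of the alternative settings one of these classes came first. MGE interneurons held 251 CPM, 0.603-fold (0.557 to 0.652) the forebrain GABAergic level, and their Nrp1 level was likewise 0.652-fold (0.605 to 0.702) of it. Cajal-Retzius nuclei held 322 CPM and cortical excitatory nuclei 309 CPM. Thalamic nuclei at 113 CPM and radial glia at 109 CPM again closed the order. The thalamic nuclei were a large class of 533 nuclei with a median depth of 5200 UMIs, above the median of the library.

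The 2 class A plexins led in the same pair of classes. Plxna2 was at 875 CPM (843 to 907) in cortical excitatory nuclei, 2.54-fold (2.44 to 2.65) the other classed nuclei, and at 701 CPM (677 to 727) in MGE interneurons. Plxna4, a partner of Nrp1 for Sema3a, was at 1155 CPM (1118 to 1192) in cortical excitatory nuclei, 2.31-fold (2.22 to 2.39) the others, and at 990 CPM (960.3 to 1020) in MGE interneurons. In both cases the cortical level was above the MGE level beyond counting error, but with classes set by clustering the MGE interneurons came first. The MGE level was 1.84-fold (1.73 to 1.96) that of forebrain GABAergic nuclei for Plxna2 and 2.16-fold (2.04 to 2.29) for Plxna4, the opposite direction to the neuropilins. Striatal nuclei held 301 CPM of Plxna2 and 629.6 CPM of Plxna4. The mural Plxna4 level of 889.8 CPM had 39.1% of its UMIs in 1 of 30 nuclei. The lowest classes were GABAergic nuclei without Dlx for Plxna2, at 81.8 CPM, and endothelial nuclei for Plxna4, at 247 CPM. The 29 endothelial nuclei that met no second list held 545 CPM of Plxna4 (430.3 to 681).

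Plxnd1, the receptor of Sema3e, had the highest leading ratio of the 8 members in E14. Endothelial nuclei held 118 CPM (103 to 134, 142 nuclei), 29.5-fold (23.6 to 37.1) the other classed nuclei. Mural nuclei held 26.7 CPM from 7 UMIs and microglia or macrophages 23.4 CPM (14.3 to 36.1) from 20 UMIs. All neuronal classes stood at 9.09 CPM or less, striatal nuclei at 3.09 CPM and cortical excitatory nuclei at 5.69 CPM. A Plxnd1 UMI was found in 67.6% of endothelial nuclei at a median depth of 9048 UMIs, in 0.685% of forebrain GABAergic nuclei at 4669 UMIs, and in 0 of 73 hypothalamic nuclei, where 3 counts would be 2.75 CPM. In nuclei with at least 2000 UMIs, each thinned to that number, it was found in 27 of 129 endothelial nuclei (20.9%) and 1 of 518 forebrain GABAergic nuclei (0.193%). Mural markers were seen in 107 of the 142 endothelial nuclei, and the level was 117 CPM in those and 120.3 CPM in the 35 without.

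The Plxnd1 promoter is shown because its level was highest in endothelial nuclei in both libraries, and factors of the ETS family are known regulators of endothelial genes. It is the RefSeq window on GRCm38.p6 read along the minus strand, and the capitals mark AGGAAG, searched on both strands.
Plxnd1, chr6:115994956-115995255: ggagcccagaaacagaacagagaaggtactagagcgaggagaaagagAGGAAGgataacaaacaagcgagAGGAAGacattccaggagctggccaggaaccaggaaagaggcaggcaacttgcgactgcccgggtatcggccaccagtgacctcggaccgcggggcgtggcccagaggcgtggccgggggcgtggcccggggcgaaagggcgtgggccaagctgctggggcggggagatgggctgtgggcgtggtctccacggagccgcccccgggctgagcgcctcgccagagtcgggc
The window held 2 matches. The motif is short and frequent: 35.4% of all windows and 4 of the 7 member windows (Nrp1, Plxnd1, Sema3a and Sema3e) held it, so its presence does not set Plxnd1 apart.

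Read by class, 6 of the 8 members had a class at least 2-fold above all other classed nuclei in E14, where 45.9% of the 16187 genes tested did; the exceptions were Nrp1 at 1.98-fold and Nrp2 at 1.77-fold. Cortical excitatory nuclei were past that fold for 3 members (Sema3c, Plxna2, Plxna4), against 2.01% of all genes. Fibroblast or mesenchyme nuclei were past it for 2 (Sema3a, Sema3e, 9.20% of all genes), striatal nuclei for Sema3e (1.35%) and endothelial nuclei for Plxnd1 (11.1%). Choroid plexus and GABAergic nuclei without Dlx were also past it for Sema3c, and mural nuclei and microglia or macrophages for Plxnd1. At the other end, thalamic nuclei were at least 2-fold below the rest for 5 members (Sema3c, Nrp1, Nrp2, Plxna2, Plxnd1; 14.3% of all genes). Radial glia were so for 4 (Nrp1, Nrp2, Plxna4, Plxnd1; 11.1%) and hypothalamic nuclei for 4 (Sema3c, Sema3e, Plxna2, Plxnd1; 18.7%), and the other classes for 2 or fewer. The 8 members were chosen with results of these libraries known, so these counts describe them and are set beside the background without a test.

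**Figure D2:**
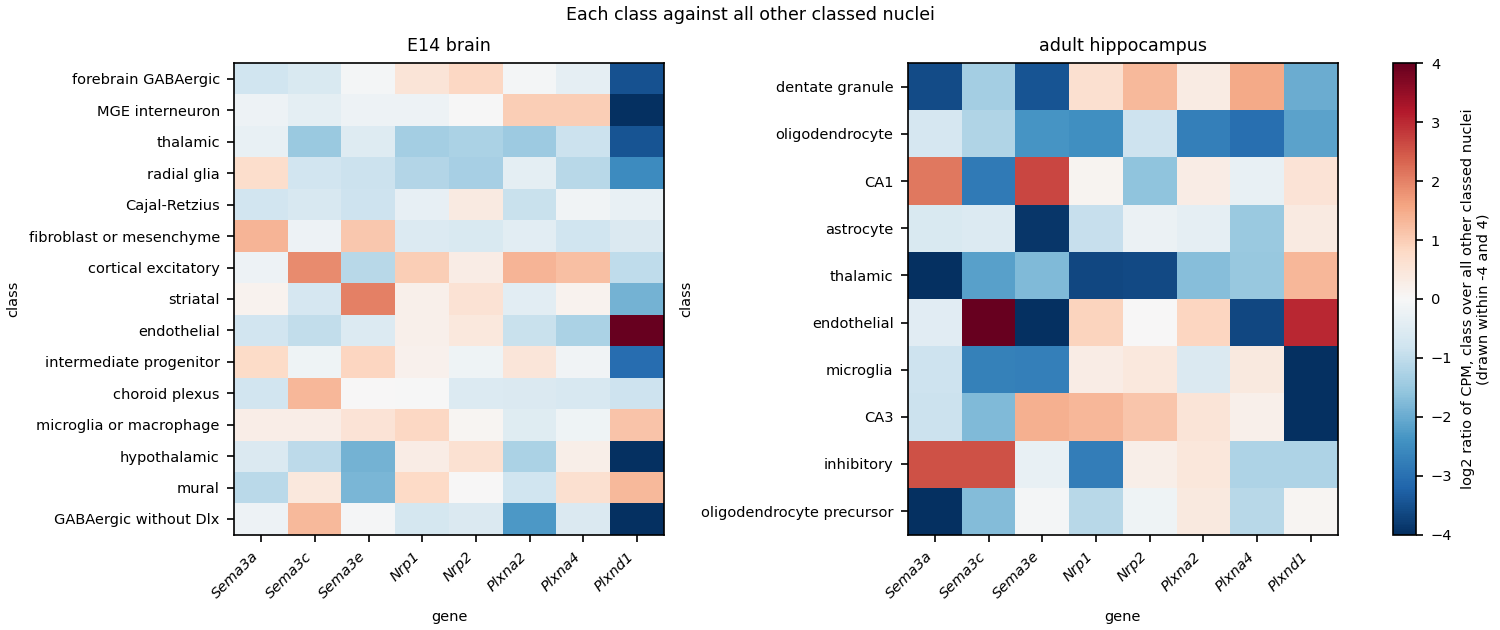
Log2 ratio of the level in each class to that in all other classed nuclei, for 15 E14 classes (left) and 10 adult classes (right), with values drawn within -4 and 4 and classes ordered by number of nuclei. Red marks a class above the rest and blue one below; the thalamic rows are blue for 8 members in E14 and for all members but Plxnd1 in the adult.

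Ligand and receptor classes in the E14 brain overlapped for some pairs and not for others. Sema3c and the receptors Nrp1, Plxna2 and Plxna4 were all highest in cortical excitatory nuclei, so ligand and receptor were high in the same class. Sema3e and Plxnd1 were high in different classes: striatal nuclei had 94.4 CPM of the ligand and 3.09 CPM of the receptor, and endothelial nuclei 18.7 CPM of the ligand and 118 CPM of the receptor. A Sema3e UMI was found in 36 of the 213 striatal nuclei and a Plxnd1 UMI in 5, and none held both. With so few Plxnd1 nuclei, this cannot show that the genes keep to different striatal nuclei. In the endothelial class 14 of 142 nuclei held Sema3e, 96 held Plxnd1 and 12 held both. The 29 endothelial nuclei that met no second list held no Sema3e UMI. For Sema3a, the fibroblast or mesenchyme nuclei that led held 229.9 CPM of Nrp1 and 338 CPM of Plxna4, both below the median of the 15 classes (373 and 507 CPM).

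Over the 15 classes the Spearman correlation of levels was 0.714 between Nrp1 and Nrp2, 0.582 between Nrp1 and Plxna4, and 0.389 between Plxna2 and Plxna4. Between ligands and their receptors it was -0.200 for Sema3a and Nrp1, 0.336 for Sema3c and Nrp1, and -0.00894 for Sema3e and Plxnd1. These values describe classes of 1 library that differ in depth. A neuropilin and a class A plexin were detected in the same nucleus in 88.3% of cortical excitatory nuclei, 80.4% of intermediate progenitors and 28.0% of thalamic nuclei. In nuclei with at least 2000 UMIs, thinned to that number, these shares were 62.2% of 270, 44.1% of 93 and 14.3% of 491 nuclei. The order of these 3 classes was kept at equal depth.

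Within the radial glial class, nuclei were split by whether more dorsal or more ventral markers had a UMI. Sema3a was at 132 CPM (114 to 152) in 120 dorsal nuclei and at 61.0 CPM (47.9 to 76.6) in 104 ventral nuclei, a ratio of 2.16 (1.64 to 2.86). Sema3e was at 10.4 CPM in dorsal and 21.4 CPM in ventral nuclei, a ratio of 0.485 (0.239 to 0.950). Nrp1 was at 124 and 167 CPM (0.741, 0.603 to 0.911), and Plxna2 at 295 and 350.4 CPM (0.843, 0.735 to 0.966). For Sema3c, Nrp2, Plxna4 and Plxnd1 the interval of the ratio held 1.

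**Figure D3:**
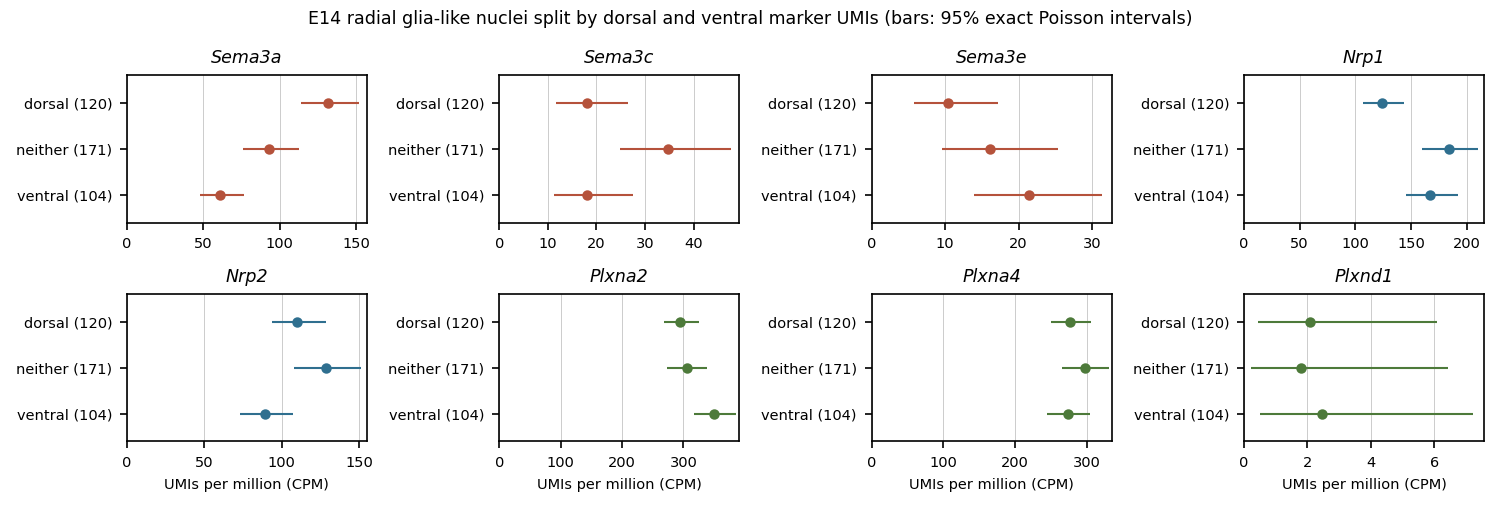
Level of each member, in CPM on linear axes that differ between panels, in E14 radial glia split into dorsal, neither (as many dorsal as ventral markers with a UMI, or none) and ventral nuclei, with numbers of nuclei in parentheses. Bars are exact Poisson intervals; Sema3a is at 132 CPM in dorsal and 61.0 CPM in ventral nuclei, and Sema3e at 10.4 and 21.4 CPM.

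In the adult hippocampus the ligands again each had a leading class of their own. Sema3a was highest in inhibitory nuclei at 38.7 CPM (24.0 to 59.2, 37 nuclei), 5.82-fold (3.42 to 9.48) the other classed nuclei, but from 21 UMIs of which 38.1% came from 1 nucleus. A set of 12 nuclei with cortical excitatory markers, too few to be a class, held 82.7 CPM (48.2 to 132), and with classes set by clustering such nuclei came first. CA1 nuclei held 18.5 CPM (14.2 to 23.6), 19.6-fold (7.27 to 74.0) the dentate granule level of 0.945 CPM, which came from 4 UMIs in 326 nuclei. Thalamic nuclei held no Sema3a UMI, where 3 counts would be 2.12 CPM.

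Sema3c was highest in endothelial nuclei at 520.5 CPM (447 to 603, 55 nuclei), 31.9-fold (26.0 to 39.2) the others and 60.8-fold without nuclei that met a second list. Inhibitory nuclei followed at 144 CPM (114 to 179), and the other 8 classes lay between 4.54 and 20.4 CPM. A Sema3c UMI was found in 72.7% of endothelial nuclei, whose median was 3437 UMIs, against 8.81% of the deeper CA1 nuclei with a median of 18136. The mural marker Rgs5 was among the 10 leading genes of this endothelial class. The level was 507 CPM in the 44 endothelial nuclei with a mural marker UMI and 772 CPM in the 11 without, and the interval of the ratio, 0.793 to 2.67, held 1. A set of 4 nuclei with mural markers, too few to be a class, held 1134 CPM with 80.0% of the UMIs in 1 nucleus.

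Sema3e separated the pyramidal fields from the dentate gyrus. CA1 nuclei held 239 CPM (223 to 256, 193 nuclei) and CA3 nuclei 214 CPM (184 to 246, 45 nuclei), and these intervals overlapped, with CA3 first when classes were set by clustering. Dentate granule nuclei held 11.6 CPM (8.56 to 15.3), so the CA1 level was 20.6-fold (15.5 to 28.1) and the CA3 level 18.5-fold (13.4 to 25.8) theirs. Oligodendrocyte precursors held 85.4 CPM from 19 UMIs, 4.60-fold (2.28 to 9.29) the level of oligodendrocytes. Of these 31 nuclei 23 also met a second list, 17 of them meeting the inhibitory one, and the other 8 held 4 Sema3e UMIs, a ratio of 6.87 (1.60 to 23.2) to oligodendrocytes without a second list. Inhibitory nuclei held 73.7 CPM with 42.5% of it in 1 nucleus, and astrocytes 6.44 CPM.

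**Figure D4:**
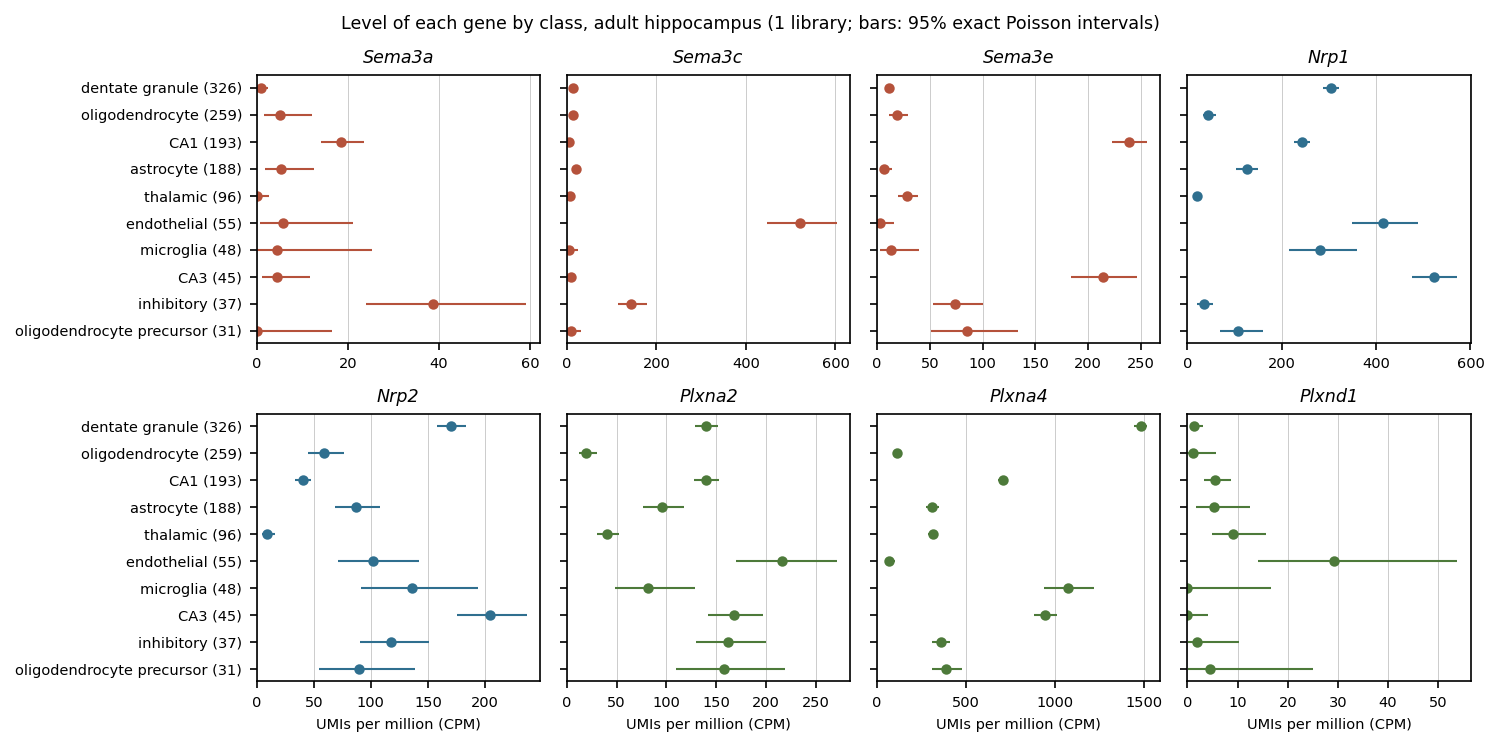
Level of each member in the 10 adult classes, in CPM on a linear axis that differs between panels, with the number of nuclei of each class in parentheses and exact Poisson intervals as bars. Sema3e is high in CA1 and CA3 (239 and 214 CPM) and low in dentate granule nuclei (11.6 CPM), where Plxna4 is highest (1480.5 CPM).

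The adult receptors also differed between hippocampal fields. Nrp1 was highest in CA3 nuclei at 522.5 CPM (476 to 573), 2.52-fold (2.27 to 2.78) the other classed nuclei. Endothelial nuclei at 415 CPM (350 to 489) overlapped that interval, and dentate granule nuclei at 304 CPM and CA1 nuclei at 243 CPM followed. The CA3 level was 2.15-fold (1.91 to 2.41) that of CA1. Nrp2 was at 204 CPM in CA3 and 170.3 CPM in dentate granule nuclei, a ratio of 1.20 (1.01 to 1.42), and at 40.5 CPM in CA1. Its CA3 level was thus 5.05-fold (4.03 to 6.35) that of CA1, and this interval did not overlap that of the Nrp1 ratio. Both neuropilins were low in thalamic nuclei, at 20.5 CPM for Nrp1 and 9.18 CPM for Nrp2. Inhibitory nuclei held 35.0 CPM of Nrp1 but 118 CPM of Nrp2.

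Plxna4 was highest in dentate granule nuclei at 1480.5 CPM (1444 to 1518), 2.86-fold (2.75 to 2.97) the others. Microglia followed at 1071 CPM, CA3 at 943 CPM and CA1 at 708 CPM, and endothelial nuclei were lowest at 67.3 CPM. The CA1 level was 0.478-fold (0.456 to 0.502) that of dentate granule nuclei. Plxna2 differed less between some neuronal classes: CA3, inhibitory, dentate granule and CA1 nuclei held 168, 162, 139.8 and 139.6 CPM with overlapping intervals. In thalamic nuclei Plxna2 was lower, at 40.2 CPM (30.5 to 52.1). Its highest class was endothelial at 216 CPM (169.9 to 272), 1.82-fold the others and 3.19-fold without nuclei that met a second list. The endothelial interval overlapped that of CA3 (142 to 197). Oligodendrocytes held 19.6 CPM and their precursors 157 CPM, 8.02-fold (4.47 to 14.9) as much. In the 8 precursors that met no second list Plxna2 had 1 UMI, and the ratio was 3.78 (0.0799 to 33.8). Plxnd1 was again highest in endothelial nuclei, at 29.2 CPM (14.02 to 53.8) from 10 UMIs, 8.15-fold (3.67 to 16.4) the others and 18.2-fold without nuclei that met a second list. Thalamic nuclei at 9.18 CPM from 13 UMIs overlapped that interval. The 18.2-fold ratio rested on 4 Plxnd1 UMIs in the 27 endothelial nuclei that met no second list.

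By class, 7 of the 8 members had an adult class at least 2-fold above the rest, against 62.3% of the 13459 genes tested, and Plxna2 was the exception. CA3 nuclei were past that fold for 3 members (Sema3e, Nrp1, Nrp2; 3.46% of all genes), and CA1 nuclei for Sema3a and Sema3e (4.23%). Dentate granule nuclei were past it for Nrp2 and Plxna4 (5.56%) and at least 2-fold below the rest for Sema3a, Sema3c, Sema3e and Plxnd1 (18.2%). Inhibitory nuclei were past it for Sema3a and Sema3c (8.04%), and endothelial nuclei for Sema3c and Plxnd1 (22.3%). Thalamic nuclei were at least 2-fold below the rest for 7 members, all but Plxnd1 (21.2%), and oligodendrocytes for 6 (27.6%), all but Sema3a and Nrp2. For Plxnd1, thalamic nuclei were at least 2-fold above the rest.

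The ligand and receptor fields of the adult hippocampus can be set side by side. Dentate granule nuclei held 14.2 CPM or less of each ligand, together with both neuropilins and the highest Plxna4. CA3 nuclei held Sema3e, Nrp1, Nrp2 and Plxna4 together, and a neuropilin with a class A plexin was detected in 95.6% of them and in 89.6% of dentate granule nuclei. In nuclei with at least 2000 UMIs, thinned to that number, these shares were 65.1% of 43 and 52.9% of 310 nuclei, against 2.51% of 199 oligodendrocytes. For Sema3e and Plxnd1, CA3 held 214 CPM of the ligand and no Plxnd1 UMI, where 3 counts would be 3.41 CPM, and endothelial nuclei 2.92 CPM of the ligand from 1 UMI. CA1, the leading Sema3e class at 239 CPM, held 5.57 CPM of Plxnd1 (3.35 to 8.70) from 19 UMIs, 3.93-fold (1.51 to 12.0) the dentate granule level. A Sema3e UMI was found in 158 of the 193 CA1 nuclei and a Plxnd1 UMI in 16, of which 14 held both. Sema3c and Nrp1 were both high in endothelial nuclei, at 520.5 and 415 CPM. Over the 10 classes the Spearman correlation was 0.673 between Nrp1 and Nrp2 and -0.515 between Sema3c and Plxna4, as a description.

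Next, 5 pairs of E14 and adult classes were set side by side, for genes with at least 20 UMIs in the pair. Thalamic and endothelial classes had the same name in both libraries, while E14 microglia or macrophages were set against adult microglia, MGE interneurons against inhibitory nuclei and radial glia against astrocytes. The marker lists differed between the libraries in each pair, so age, region, animal, library and the makeup of the class cannot be told apart in these ratios. Thalamic nuclei were at least 2-fold higher in E14 for 5 of 7 members tested (24.3% of all genes) and lower for 0 (15.5%). A second list was met by 31 of the 533 E14 and 50 of the 96 adult thalamic nuclei, and the ratios include them. Of the 5, Sema3c was at 2.02-fold (1.01 to 4.46) with 10 adult UMIs. Nrp2 was at 113 CPM in E14 and 9.18 CPM in the adult, 12.3-fold (7.14 to 23.4), and Nrp1 at 139 and 20.5 CPM, 6.78-fold (4.66 to 10.2). Sema3a was at 52.6 CPM in E14 and without a UMI in the adult, 24.8-fold higher with the adult set at 3 counts, and the counting interval of the ratio began at 20.0. Plxna4 was at 329 and 313 CPM, a ratio of 1.05 (0.942 to 1.18).

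E14 MGE interneurons against adult inhibitory nuclei gave 4 of 7 members higher in E14 (24.2% of all genes) and 2 lower (16.0%). The receptors were the higher ones: Nrp1 at 292 against 35.0 CPM (8.34-fold, 5.32 to 13.9), Plxna2 at 701 against 162 CPM (4.32-fold, 3.50 to 5.41), Plxna4 2.77-fold and Nrp2 2.13-fold. The ligands Sema3c (29.2 against 144 CPM) and Sema3e (23.6 against 73.7 CPM) were the lower ones, with ratios of 0.203 (0.152 to 0.273) and 0.319 (0.220 to 0.473). Of the 40 adult Sema3e UMIs, 42.5% came from 1 nucleus, which the interval does not cover. The ratio of Sema3a, 1.45 (0.929 to 2.39), held 1 in its interval.

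Endothelial nuclei were higher in E14 for 5 of 8 members (25.5% of all genes) and lower for Sema3c (16.0%). Sema3c was at 19.2 CPM in E14 and 520.5 CPM in the adult, a ratio of 0.0368 (0.0252 to 0.0525), the widest difference of any tested member and pair with UMIs in both libraries. Plxnd1 was at 118 and 29.2 CPM (4.02-fold, 2.15 to 8.50), Plxna4 at 247 and 67.3 CPM (3.68-fold, 2.42 to 5.86) and Nrp2 at 335 and 102 CPM (3.27-fold, 2.33 to 4.74). The other 2 higher members, Sema3a and Sema3e, rested on 2 and 1 adult UMIs. Nrp1 was at 380.1 and 415 CPM and Plxna2 at 221 and 216 CPM, with intervals that held 1.

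The endothelial classes differed in the markers of other cells that they held. A second list was met by 113 of the 142 E14 nuclei, among them 62 for the mural and 53 for the radial glial list, and by 28 of the 55 adult nuclei. Of the 19 co-receptors and intracellular partners, 4 known from growing axons were also higher in E14. Dpysl5 had 273 UMIs against 0, L1cam 113 against 0, Dpysl3 was 28.3-fold and Crmp1 12.6-fold higher. Not all partners followed: Farp1 was at 361 CPM in E14 and 284 CPM in the adult, and Fes at 14.6 and 20.5 CPM. Of all genes tested, 25.5% were at least 2-fold higher in E14. Between the 29 E14 and 27 adult nuclei that met no second list, Sema3c was at 21.2 and 939.8 CPM (0.0226, 0.00454 to 0.0691), Nrp2 was 6.88-fold (2.55 to 26.1) and Plxna4 7.31-fold (3.00 to 23.2) higher in E14. These 2 receptors were then the only ones past 2-fold higher of the 5 members with 20 UMIs. The ratio of Plxnd1 was 1.78 (0.567 to 7.37, 15 and 4 UMIs), that of Plxna2 was 0.545 (0.315 to 0.949), and Sema3a and Sema3e had 2 and 0 UMIs in E14. In these nuclei Dpysl5, Dpysl3 and Crmp1 still had 21, 44 and 31 UMIs in E14 and 0 in the adult. L1cam had 3 UMIs in E14 and 0 in the adult, and the interval of its ratio began at 0.196. The part of other cells' RNA in the ratios was not tested.

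Microglia or macrophages were higher in E14 for 6 of 8 members (22.5% of all genes) and lower for Plxna4 (14.4%), which was at 507 CPM in E14 and 1071 CPM in the adult, a ratio of 0.474 (0.403 to 0.557). Of the 6, Plxnd1 had 20 UMIs in E14 and 0 in the adult, 1.72-fold with the adult set at 3 counts and with an interval that began at 1.27, so that 2-fold was not shown, and Sema3a and Sema3c had 1 adult UMI each. Sema3e, also among the 6, had 81.8% of its E14 UMIs in 1 nucleus and rested on 3 adult UMIs. For Sema3a, 1 nucleus gave 46.2% of the E14 UMIs. Plxna2 was at 285 and 81.7 CPM, 3.49-fold (2.16 to 5.99). Radial glia against astrocytes gave 3 of 7 members higher in E14 (27.8% of all genes) and 0 lower (18.5%): Sema3a at 97.4 against 5.37 CPM (18.1-fold, 7.71 to 56.2), Plxna2 at 316 against 95.6 CPM (3.31-fold, 2.66 to 4.15) and Sema3e at 15.6 against 6.44 CPM (2.42-fold, 1.05 to 6.87). The astrocyte levels of Sema3a and Sema3e rested on 5 and 6 UMIs, and 88 of the 188 astrocytes met a second list.

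**Figure D5:**
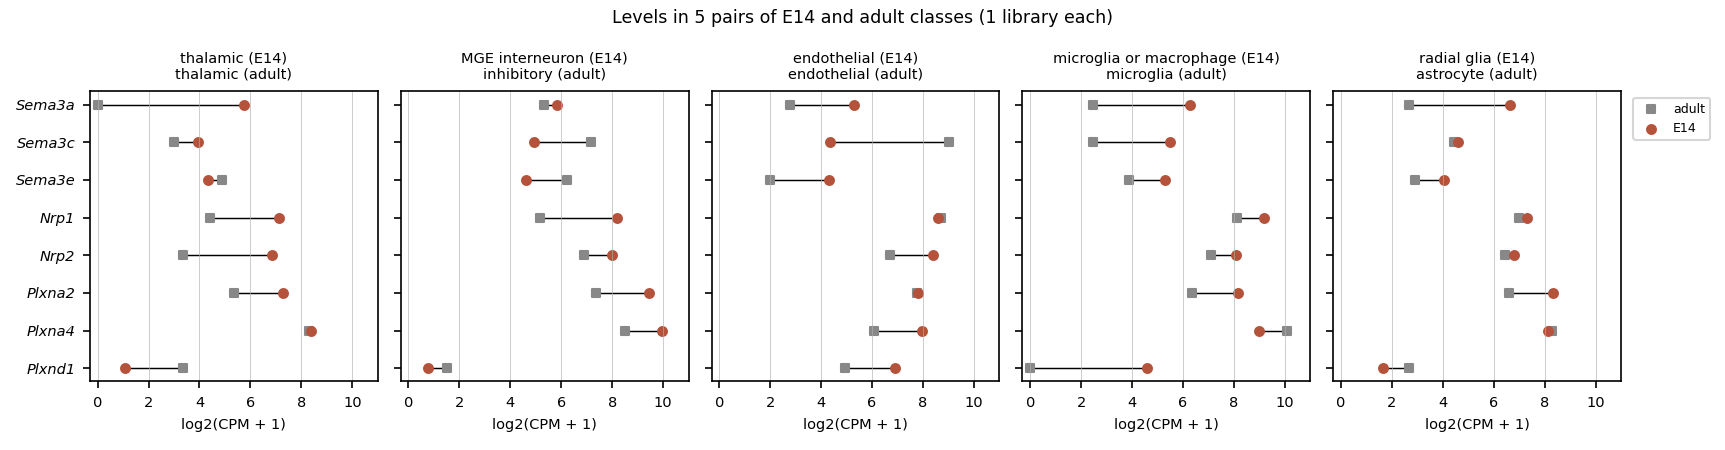
Level of each member as log2(CPM + 1) in the 5 pairs of E14 and adult classes, with E14 as red circles and the adult as grey squares joined by a line. Each point is 1 library; endothelial Sema3c lies far to the right in the adult (520.5 against 19.2 CPM), while thalamic neuropilins lie to the right in E14.

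The rest of the family gives the surroundings of these 8 genes. Of the other 4 class 3 semaphorins, 3 had enough UMIs in E14 and 2 of them had a class at least 2-fold above the rest. These were Sema3d, at 28.6 CPM in fibroblast or mesenchyme nuclei (4.02-fold), and Sema3g, at 21.2 CPM in endothelial nuclei (46.0-fold), while Sema3f was highest in thalamic nuclei at 26.0 CPM (1.99-fold). In the adult only Sema3d had enough UMIs, with 193 CPM in oligodendrocyte precursors (31.7-fold). Of 6 other plexins, 2 of 5 tested were past 2-fold in E14, namely Plxna1 in hypothalamic nuclei at 121 CPM (2.26-fold) and Plxnb2 in choroid plexus at 109.8 CPM (2.99-fold), and 5 of 5 tested in the adult. The adult ones included Plxnb3 at 121 CPM in oligodendrocytes (164-fold) and Plxnb1 at 60.1 CPM in astrocytes (14.1-fold).

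Among 13 semaphorins of classes 4 to 7, 8 had such a class in E14 and 13 in the adult. Sema6d was at 1841 CPM in E14 choroid plexus (2.86-fold) and Sema5b at 391 CPM in radial glia (3.27-fold). In the adult Sema5a was at 719 CPM in dentate granule nuclei (6.04-fold) and Sema6a at 578 CPM in oligodendrocytes (8.12-fold). Of 19 co-receptors and intracellular partners, such as L1cam, the CRMP proteins and MICALs, 7 of 19 tested were past 2-fold in E14 and 10 of 15 in the adult. The median leading ratio over the 8 members was 2.56 in E14 and 4.34 in the adult, against 1.90 and 2.33 over all genes tested.

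The genes whose levels over the 15 E14 classes were most like those of a member were found by Pearson correlation of log2(CPM + 1) over 11084 candidates with at least 500 UMIs, none of them a marker or family member. For Plxnd1 they were Rassf3 (0.940), Vasp (0.925) and Pdcd6ip (0.918), and for Plxna2 Rhobtb3 (0.884) and Gm34304 (0.872). For Plxna4 the most alike was Plxna4os3 (0.955), and for Sema3e it was Gm4128 (0.909). Both lie inside the member on the opposite strand, at chr6:32303829-32316614 and chr5:14056438-14074157. Whether reads of one gene of a pair were counted for the other was not tested. For Nrp1 and Nrp2 the most alike was Klhl24 in both cases (0.789 and 0.801), and for Sema3a and Sema3c the highest values were 0.837 (Igdcc4) and 0.734 (Erich1).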

How the data were processed

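The deposited values were raw UMI counts per gene and nucleus, which the authors made with Cell Ranger on mm10 with intronic reads included. The file headers name Cell Ranger 7.0.1 for the E14 library and 6.1.2 for the adult library, while the methods also name a background-removal step for the embryo that could not be traced in the counts used here. Nuclei with at least 500 UMIs and at most 5% mitochondrial UMIs were kept. Marker lists of 8 genes placed nuclei in classes of at least 20 nuclei; the members and lists were chosen with earlier results of these data known, and the rule that scores the lists was set after the data were seen. All genes with at least 50 UMIs in classed nuclei formed the background. With 1 library per tissue no test was run, and intervals (exact Poisson, Clopper-Pearson and conditional binomial) cover counting error only. All 8 members were named in all comparisons, with the other family genes by list and the 3 genes most like each member; 1 of these and a further split of a class are not reported here. Gene positions came from GENCODE vM21 and promoter windows from RefSeq. Ratios were tested on simulated data. Python 3.11.15, numpy 2.4.6, scipy 1.17.1, pandas 2.3.3 and scikit-learn 1.9.0 were used, and leidenalg 0.10.2 for the clustering alternative. Alternatives were other marker cutoffs, clustering, depth and Malat1 filters, removal of nuclei with a second list and another reference for the ratio, and, chosen after seeing the data, leaving out the deepest nucleus of each class, equal weight for each nucleus, globin-rich nuclei as a class, second-list removal for the endothelial and oligodendrocyte lineage comparisons and dorsal radial glia alone.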

Additional observations from a re-analysis of the deposited data

Results flagged for a closer look

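By point estimate, Plxnd1 moved in opposite directions in 2 of the pairs of E14 and adult classes, and neither difference was tested, since each tissue was 1 library. In thalamic nuclei the level was 0.0919-fold that of the other classed nuclei in E14 (4 UMIs, 0.0249 to 0.238) and 2.51-fold in the adult (13 UMIs, 1.24 to 4.75). In microglia or macrophages it was 2.20-fold in E14 (20 UMIs, 1.33 to 3.46) and 0-fold in the adult, where the 48 nuclei held 0 UMIs and the interval reached 4.0. That adult interval held the E14 ratio, so a fall beyond counting error was not shown for this pair.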

How the results depend on the processing

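No paired analysis was possible because each tissue was 1 library and the labels give no replicate numbers. The ratio of the leading class to the other classed nuclei was recomputed for the 8 members under 9 alternative settings, of which leaving out the deepest nucleus of each class, equal weight for each nucleus and globin-rich nuclei as an E14 class were chosen after seeing the data. All 136 recomputed ratios were above 1, 115 were at least 2, and in 124 the same class was highest; 95 stayed within the interval of the reported ratio. The depth minimum, the Malat1 filter, leaving out the deepest nucleus and counting globin-rich nuclei as a class moved none beyond its interval, and the cause of the following moves was not tested. With 4 markers in E14, Sema3e was 2.37, Nrp1 2.10, Nrp2 1.89, Plxna2 2.23 and Plxnd1 23.0. With classes set by clustering, Sema3c was 5.25, Sema3e 18.1, Plxna2 2.96, Plxna4 2.20 and Plxnd1 42.6 in E14, and Plxna4 3.00 in the adult. Without nuclei that met a second list, Sema3a was 3.58, Sema3c 4.32, Nrp1 2.12 and Plxna2 2.78 in E14, and Sema3c 60.8, Sema3e 5.52, Plxna2 3.19, Plxna4 2.58 and Plxnd1 18.2 in the adult. Against the median of the other classes, Nrp1 was 1.70, Nrp2 1.64, Plxna2 3.13, Plxna4 2.39 and Plxnd1 45.2 in E14, and Sema3c 57.3, Sema3e 12.8, Nrp1 4.16 and Plxna4 4.14 in the adult. With equal weight for each nucleus, Sema3a was 3.86, Sema3c 5.34, Sema3e 4.91, Nrp1 2.48, Nrp2 1.92, Plxna2 2.91 and Plxna4 2.87 in E14, and Sema3c 44.5, Sema3e 8.18, Nrp1 2.89, Plxna2 3.09 and Plxna4 4.51 in the adult. Without nuclei that met a second list, chosen for this comparison after seeing the data, the count of members at least 2-fold higher in E14 than in adult endothelial nuclei was 2 of 5 tested in place of 5 of 8, and Plxnd1 was below 2-fold and under 20 UMIs. Values from under 25 UMIs, such as adult Plxnd1 and Sema3a, are limited by depth.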
